A study of Mus musculus with 8 samples.

Results

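Nodal, the receptors and SMAD proteins that carry its signal, and the feedback inhibitors that limit it were described in mouse epiblast-like cells with and without the transcription factor GRHL2. The group held 9 genes chosen by symbol: Nodal, Lefty1, Lefty2, Tdgf1, Acvr2b, Smad2, Smad3, Smad7 and Skil. The platform annotation assigned 10 of the 25697 probes of the array to 8 of these genes, and no probe used here carried the symbol Smad7, so that gene was not analysed. All 8 genes with a probe passed the detection filter and were among the 8830 genes tested, of 16593 with a probe.

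Expression was measured on Illumina MouseRef-8 v2.0 bead arrays, which report the mean brightness of the beads that carry 1 probe. The arrays held total RNA of 4 GRHL2 knockout clones and 4 GRHL2 wildtype subclones of V6.5, a mouse embryonic stem cell line, with 1 array each. All cells were grown in medium with serum and were taken 3 days after LIF and the 2i inhibitors (of GSK3 and MEK) had been withdrawn, which takes them out of the naive state. All arrays come from 1 parent line, and no label used here gives the passage, the day of culture or the chip. The labels do not say how the knockout was made. With 1 array for each clone or subclone, p-values set the difference between genotypes against the spread among arrays of 1 genotype, whether clonal or technical.

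Nodal is a secreted ligand of the TGF-beta family. It binds activin receptors together with a membrane-anchored coreceptor, Cripto, which is the product of Tdgf1, and the receptors phosphorylate SMAD2 and SMAD3. These enter the nucleus with SMAD4 and bind with partners such as FOXH1, and among the genes they switch on are Nodal itself and its secreted inhibitors Lefty1 and Lefty2. In the epiblast and in primed pluripotent cells the pathway is known to sustain Nanog and to hold back neural differentiation.

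The labels and the arrays were checked first. Grhl2 was 7.71 ± 0.43 on knockout and 8.84 ± 0.60 on wildtype arrays (log2 normalized intensity, SD, n = 4 each), 45.6% of wildtype (limma adjusted p = 0.0369), and it stayed detected on every knockout array. No source used here places the probe inside or outside the altered sequence, so the residual signal cannot be read as intact transcript. Of 10 epiblast and core pluripotency markers all were detected, Pou5f1 at 12.12 on knockout and 11.87 on wildtype arrays among them. In knockout 3 rose, Pim2, Pou3f1 and Utf1, while 0 fell, beside 6.55% of all genes that rose and 7.17% that fell. The median log2 change of the list, knockout minus wildtype, was 0.19, and Otx2 was lowest at -0.57 (limma adjusted p = 0.0711). Of 10 markers of primitive and definitive endoderm 1 passed the detection filter, Dab2, while Gata4, Gata6, Sox17 and Foxa2 did not. Knockout arrays were dimmer before normalization, with a mean intensity of 508 ± 51.5 against 703 ± 32.4 on wildtype arrays (SD, n = 4 each), 72.3% of wildtype (exact permutation p = 0.0286, the smallest that 70 assignments allow). Genes of chromosome 6 were higher on wildtype subclone 3 than on the other wildtype arrays (median 0.40 on the log2 scale), and genes of chromosome 8 were lower on knockout clone 1 than on the other knockout arrays (median -0.43). No member lies on either chromosome. Wildtype subclone 3 also stood apart in markers of other cell types, given with the last results.

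No member passed the test between knockout and wildtype. By limma, 0 of the 8 members tested had an adjusted p under 0.05, against 13.7% of all genes, and 2 had an unadjusted p under 0.05, Nodal lower and Smad3 higher, against 32.0% of all genes. The log2 changes of the members, knockout minus wildtype, ran between -0.41 for Lefty1 and 0.41 for Smad3, with a median of -0.06 beside 0.01 over all genes, and 5 of 8 were below 0, as were 48.6% of all genes. Smad3 was the 1 member whose groups did not overlap, with all knockout arrays above all wildtype arrays, as in 12.4% of all genes, and no member had all knockout arrays below all wildtype arrays, as 10.8% of all genes had. In either direction 23.2% of all genes did not overlap. Among the 10 member probes in the authors' deposited table, 0 had an adjusted p under 0.05, against 8.62% of all probes (4.28% lower in knockout). An unadjusted p under 0.05 was given in the authors' deposited table for 3 member probes, those of Nodal (log2 change -0.30), Lefty2 (-0.20) and Smad3 (0.21), and for 21.8% of all probes. In bulk RNA, fewer cells that express a gene and less RNA per cell cannot be told apart.

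**Figure D1:**
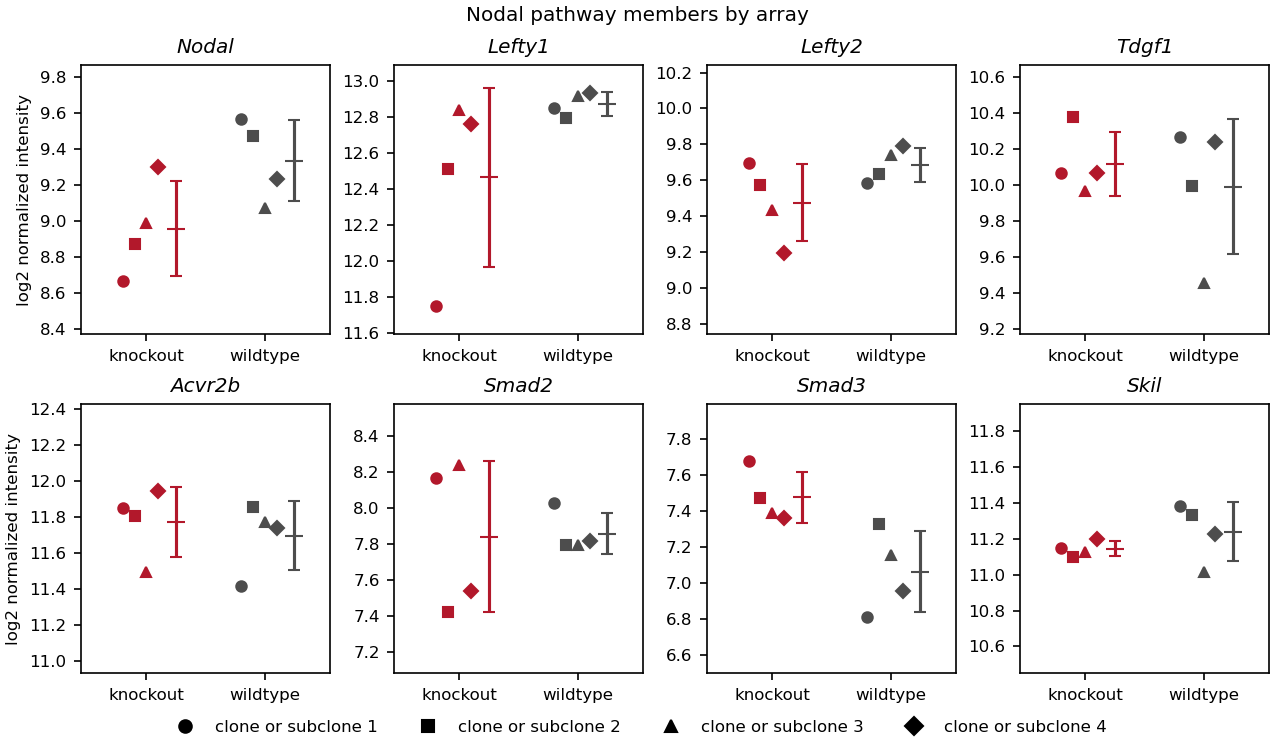
Log2 normalized intensity (y axis, each panel spans 1.5 log2 units) of the 8 measured members on each of the 4 knockout (red, left) and 4 wildtype (grey, right) arrays, with marker shapes for the clone or subclone number, the mean as a dash and the SD as a bar. The groups overlap in every panel except that of Smad3, and knockout clone 1 lies lowest for Lefty1, at 11.75.

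The ligand gene Nodal (chromosome 10, 61417972 to 61425338, GRCm38.p6) read 8.67, 8.87, 8.99 and 9.30 in knockout clones 1 to 4, against 9.57, 9.47, 9.07 and 9.23 in wildtype subclones 1 to 4 (log2 normalized intensity). The lowest 3 of the 8 arrays were knockout clones, while knockout clone 4 lay above wildtype subclones 3 and 4, so the groups overlapped. The means were 8.96 ± 0.26 in knockout and 9.34 ± 0.23 in wildtype (SD, n = 4 each), a log2 change of -0.38 (SE 0.16, limma adjusted p = 0.138). Knockout thus held 76.9% of the wildtype level, with a 95% interval of 59.9% to 98.6% that is not adjusted for the number of genes. When single arrays were left out the log2 change lay between -0.49 and -0.28. Before normalization the Nodal probe read 471, 452, 508 and 502 in knockout clones 1 to 4, against 1088, 950, 751 and 944 in wildtype subclones 1 to 4, and these did not overlap. On the intensity scale 69.0% of all detected probes were likewise lower on every knockout array than on any wildtype array, and in the authors' normalized log2 values 10.3% were, with no member probe among them.

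The coreceptor gene Tdgf1 (chromosome 9, 110939608 to 110946158) had a pair of detected probes that differed in the sign of their change. The brighter probe read 10.07, 10.38, 9.97 and 10.06 in knockout clones 1 to 4, against 10.27, 9.99, 9.46 and 10.24 in wildtype subclones 1 to 4. Its log2 change was 0.13 (SE 0.18, limma adjusted p = 0.663), and the interval of 82.2% to 145% of wildtype held both directions. The dimmer probe read 7.46, 7.83, 7.04 and 7.14 in knockout clones 1 to 4, against 8.31, 8.0, 6.84 and 7.92 in wildtype subclones 1 to 4, a log2 change of -0.40 (SE 0.30, limma adjusted p = 0.386 in a fit over all 12790 retained probes, of which 13.0% passed). On both probes wildtype subclone 3 was the lowest of all 8 arrays. Without that array the log2 change of the brighter probe turned to -0.05 (limma adjusted p = 0.823).

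The promoters of the ligand and coreceptor genes are shown because SMAD proteins, FOXH1 and GRHL2 bind DNA, and Nodal and Tdgf1 head the pathway. RefSeq promoters of GRCm38.p6, 250 bases before to 50 after the start site, were given for 4 of the 9 members, Nodal, Tdgf1, Smad3 and Acvr2b. Both strands were searched for the grainyhead motif AACCGGTT and its looser form AACNNGTT, the FOXH1 motif AATCCACA and its looser form AATNNACA, and the SMAD motif CAGAC. The first of each pair is contained in the looser form, and capitals mark the matches.
Nodal, chr10:61417722-61418021, plus strand: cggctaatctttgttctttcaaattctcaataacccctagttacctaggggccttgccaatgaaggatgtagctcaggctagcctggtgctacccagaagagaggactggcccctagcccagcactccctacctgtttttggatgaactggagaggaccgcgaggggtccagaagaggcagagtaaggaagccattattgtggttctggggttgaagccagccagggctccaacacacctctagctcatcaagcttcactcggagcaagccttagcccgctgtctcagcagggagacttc
Tdgf1, chr9:110946109-110946408, minus strand: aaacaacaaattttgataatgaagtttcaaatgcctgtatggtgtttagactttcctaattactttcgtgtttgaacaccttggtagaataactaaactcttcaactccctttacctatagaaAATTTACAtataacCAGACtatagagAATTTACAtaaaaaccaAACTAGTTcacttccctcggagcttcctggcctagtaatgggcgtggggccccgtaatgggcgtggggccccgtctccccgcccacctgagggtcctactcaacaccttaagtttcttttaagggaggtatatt
The Nodal window held 0 matches to any of these motifs. The Tdgf1 window held 1 match to the looser grainyhead form, AACTAGTT, found in 4.2% of all 32851 promoter windows, 2 to the looser FOXH1 form (12.2% of windows) and 1 to the SMAD motif (49.6% of windows). The Acvr2b window held 1 SMAD match and the Smad3 window 0 matches. AACCGGTT was found in 0.146% and AATCCACA in 0.855% of windows. A match is only a run of letters, and a window without one says nothing of binding elsewhere.

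Acvr2b (chromosome 9, 119401583 to 119442148) encodes a type II activin receptor, which binds the ligand and activates the type I receptor. It read 11.85, 11.81, 11.49 and 11.94 in knockout clones 1 to 4, against 11.42, 11.85, 11.77 and 11.74 in wildtype subclones 1 to 4. Both groups spanned about the same range. The log2 change was 0.08 (SE 0.14, limma adjusted p = 0.733), with an interval of 85.2% to 131% of wildtype.

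Smad3 (chromosome 9, 63646766 to 63757994), which encodes a signal-transducing SMAD that binds DNA directly, came nearest to the threshold. It read 7.68, 7.48, 7.39 and 7.36 in knockout clones 1 to 4, against 6.81, 7.33, 7.16 and 6.95 in wildtype subclones 1 to 4. The lowest knockout array lay just above the highest wildtype array. The log2 change was 0.41 (SE 0.14, limma adjusted p = 0.0697), or 133% of wildtype with an interval of 108% to 165%. The direction depended on the scaling: with median scaling over the probes detected on all 8 arrays the change was 0.47 and passed (limma adjusted p = 0.0319), with median scaling over all probes it was -0.0079, and without normalization between arrays it was -0.24. Before normalization Smad3 read 294, 241, 245 and 215 in knockout clones 1 to 4, against 266, 307, 286 and 297 in wildtype subclones 1 to 4, so the raw intensities did not run higher in knockout.

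Smad2 (chromosome 18, 76241090 to 76311748), whose product is phosphorylated by the same receptors, differed among knockout clones more than between genotypes. It read 8.16, 7.42, 8.24 and 7.54 in knockout clones 1 to 4, against 8.03, 7.79, 7.79 and 7.81 in wildtype subclones 1 to 4. Clones 1 and 3 lay above and clones 2 and 4 below all wildtype arrays. The SD was 0.42 in knockout and 0.12 in wildtype, and the log2 change was -0.02 (SE 0.19, limma adjusted p = 0.959) with an interval of 73.5% to 133% of wildtype.

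**Figure D2:**
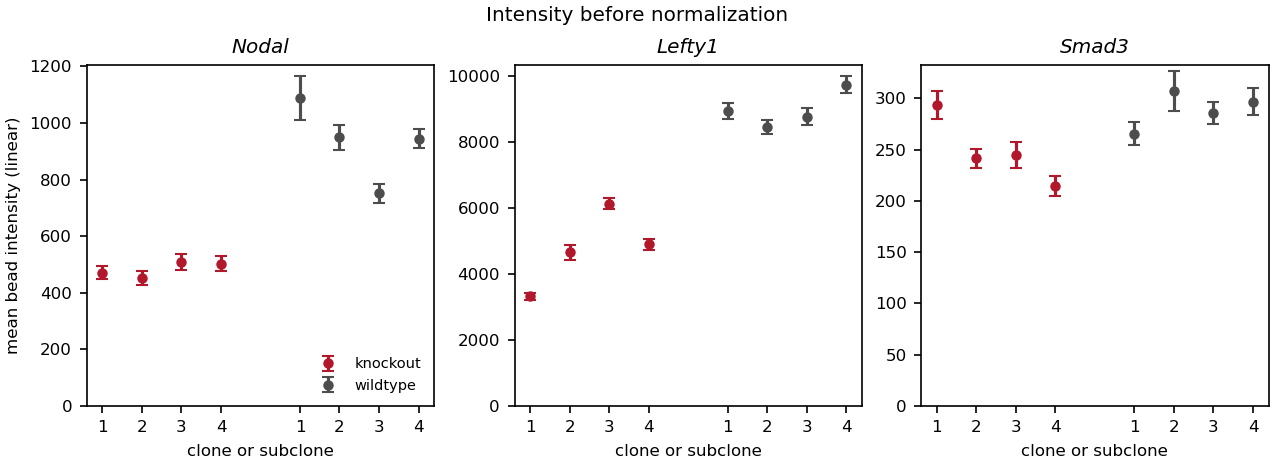
Mean bead intensity before normalization (y axis, linear, from 0) of Nodal, Lefty1 and Smad3 in knockout clones 1 to 4 (red, left) and wildtype subclones 1 to 4 (grey, right), with the standard error over beads as bars. Nodal and Lefty1 lie lower in all knockout clones, 452 to 508 and 3313 to 6116, while Smad3 overlaps, on arrays whose overall mean was 72.3% of wildtype.

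Lefty1 and Lefty2 encode secreted proteins that bind Nodal and its coreceptor and block signalling, and both genes lie next to each other on chromosome 1 (180935022 to 180938401 and 180893108 to 180899107). Lefty1 read 11.75, 12.51, 12.84 and 12.76 in knockout clones 1 to 4, against 12.85, 12.79, 12.92 and 12.93 in wildtype subclones 1 to 4. Knockout clone 1 lay 0.96 below the mean of the other knockout clones, while clone 3 lay within the wildtype range and clone 4 just below it. The SD was 0.50 in knockout and 0.065 in wildtype. The log2 change was -0.41 (SE 0.21, limma adjusted p = 0.219), 75.4% of wildtype with an interval of 54.0% to 105%. Without knockout clone 1 it was -0.17 (limma adjusted p = 0.345). In intensity, Lefty1 read 3313 ± 93.7 in knockout clone 1 and 6116 ± 164 in knockout clone 3 (standard error over beads). Lefty1, Lefty2, Nodal, Smad2 and Skil all read lower before normalization on every knockout array than on any wildtype array. So did 69.0% of all detected probes.

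Lefty2 read 9.69, 9.58, 9.44 and 9.19 in knockout clones 1 to 4, against 9.58, 9.63, 9.74 and 9.79 in wildtype subclones 1 to 4. Knockout clones 2, 3 and 4 lay below all wildtype arrays, clone 2 only just (9.576 against 9.582 in wildtype subclone 1), and clone 1 lay within them. The log2 change was -0.21 (SE 0.13, limma adjusted p = 0.280), 86.4% of wildtype with an interval of 71.0% to 105%. Without knockout clone 4 it was -0.12 (limma adjusted p = 0.550). Clone 1, the lowest for Lefty1, was thus the highest knockout clone for Lefty2. The transcripts of both genes are alike in sequence, and how far each probe tells them apart was not tested, since no probe sequences were used here.

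Skil (chromosome 3, 31095058 to 31122923) encodes SnoN, a repressor that binds SMAD proteins at their target genes. Its brighter probe read 11.15, 11.10, 11.13 and 11.20 in knockout clones 1 to 4, against 11.38, 11.33, 11.02 and 11.23 in wildtype subclones 1 to 4. Knockout values lay inside the wildtype range and closer together. The log2 change was -0.10 (SE 0.11, limma adjusted p = 0.577), with an interval of 79.0% to 111% of wildtype. It was -0.05 without wildtype subclone 1 and -0.17 without wildtype subclone 3. A second Skil probe, assigned to another RefSeq transcript of the gene, was detected on 0 of 8 arrays, with intensities of 115 to 123 in knockout and 132 to 143 in wildtype.

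**Figure D3:**
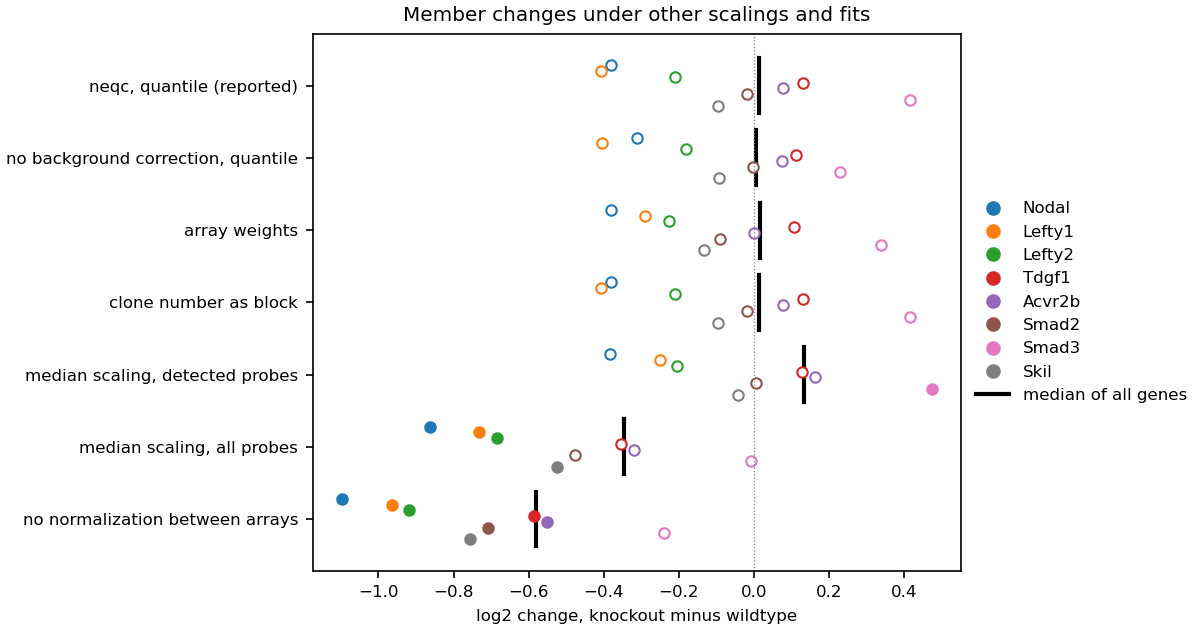
Log2 change of each member, knockout minus wildtype (x axis), under 7 settings (rows), filled where the limma adjusted p was under 0.05. The black bar is the median change of all genes tested, 0.01 in the reported setting, -0.35 with median scaling over all probes and -0.58 without normalization between arrays, and Smad3 lies highest in every row.

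The scaling of the arrays set whether members were called. With median scaling over all probes Nodal, Lefty1, Lefty2 and Skil were lower and passed, 4 of 8. Of all 8830 genes 3607 passed in that setting, 3474 of them lower. Without normalization between arrays all members except Smad3 were lower and passed, 7 of 8. Of all 8830 genes 5771 passed in that setting, 5735 of them lower. The median of all genes stood at -0.35 with median scaling over all probes and at -0.58 without normalization between arrays. Relative to that median, under either scaling, Nodal was at -0.52, Lefty1 at -0.39, Lefty2 at -0.34, Skil at -0.18, Smad2 at -0.13, Acvr2b at 0.03 and Smad3 at 0.34, and Tdgf1 was at -0.01. Median scaling over the probes detected on all 8 arrays, chosen after the data were seen, placed the median of all genes at 0.13. It left Smad3 as the 1 member called, beside 2099 of all 8830 genes, 1547 of them higher.

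Arrays of 1 genotype also differed in how members moved with each other. The mean of each genotype was taken off, and the 28 pairs of members were compared over the 8 arrays with exact permutation within genotype, a test added after the correlations had been seen. Nodal and Lefty2 ran in opposite directions, with r = -0.92 (exact permutation p = 0.00694, adjusted p = 0.194) and rho = -0.93 (exact permutation p = 0.0139, adjusted p = 0.389). Without the 2 arrays farthest from the median of Nodal, r was -0.84. Within knockout r was -0.99 and within wildtype -0.87, over 4 arrays each, given as values with no test. Nodal and Skil ran together, with r = 0.72 (exact permutation p = 0.0174, adjusted p = 0.243) and rho = 0.62 (exact permutation p = 0.118, adjusted p = 0.880). Without the farthest 2 arrays r was 0.96. Counting Nodal itself, 494 of all 8830 genes had a higher r with Nodal than Skil had. Nodal and Lefty1 had r = 0.54 (exact permutation p = 0.326, adjusted p = 0.831). Within knockout that r was 0.80 and within wildtype -0.79. By either measure 0 of the 28 pairs passed after adjustment. The 576 permutations allow no exact permutation p below 0.00174, so the test had little room to call any pair. All values of 1 array share its hybridization and normalization. Knockout clones 1 to 4 had mean array intensities of 571, 496, 519 and 447. Before normalization Nodal read 471, 452, 508 and 502 there, and Lefty2 862, 667, 653 and 475. Wildtype subclones 1 to 4 had means of 712, 689, 668 and 744, with Nodal at 1088, 950, 751 and 944 and Lefty2 at 1096, 1055, 1105 and 1334. Whether the correlation follows array brightness was not tested.

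**Figure D4:**
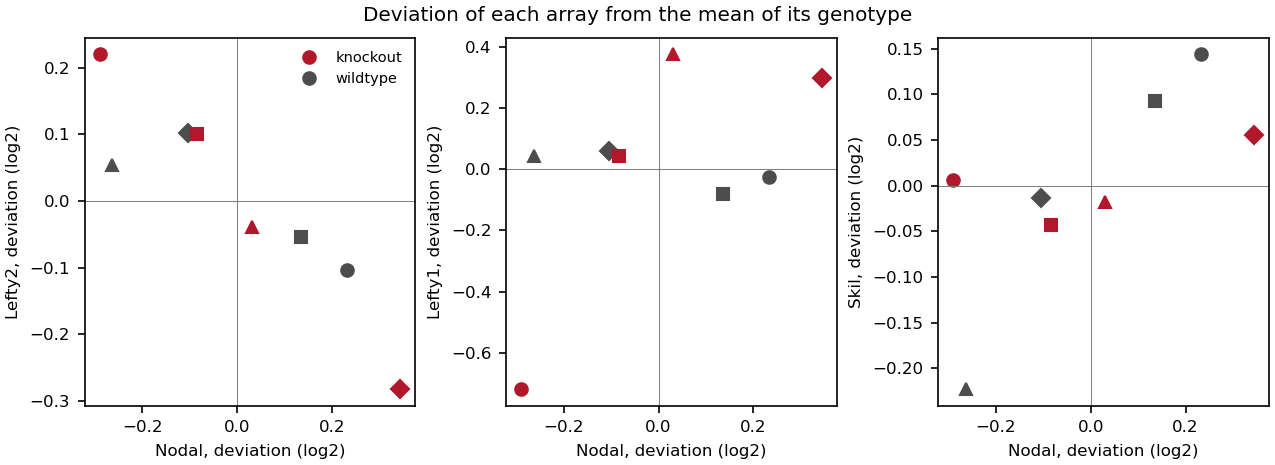
Deviation of each array from the mean of its genotype (log2) for Nodal (x axis) against Lefty2, Lefty1 and Skil (y axes), knockout in red and wildtype in grey, with marker shapes for the clone or subclone number as circle 1, square 2, triangle 3 and diamond 4. Lefty2 falls along a line of negative slope with Nodal (r = -0.92), and knockout clone 1 stands alone at the bottom for Lefty1.

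The genes whose deviations were most like those of Nodal were no members. Over the 8 arrays, after the genotype means were taken off, the 5 highest correlations with Nodal among 8829 genes were those of Thap1 (r = 0.97), Cdk19 (0.97), Fam168a (0.97), Gps1 (0.96) and Lin7b (0.95). Each is a description over 8 arrays chosen from all genes, and none of the 5 passed the test between genotypes (limma adjusted p of 0.212 to 0.894).

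Of 50 other genes of the Nodal and activin pathway, 42 had a probe and 24 were tested, of which 2 rose and 3 fell in knockout (limma adjusted p under 0.05). That is beside 6.55% of all genes that rose and 7.17% that fell. Their median log2 change was -0.09. Among ligands and their processing enzyme, Gdf3, a ligand that also uses Cripto, was at 0.23 (limma adjusted p = 0.296). Gdf3 lies on chromosome 6, and without wildtype subclone 3 it was at 0.36 (limma adjusted p = 0.0521), and at 0.39 without knockout clone 1 as well (limma adjusted p = 0.0449). Inhba, an activin subunit, was at -0.51 (limma adjusted p = 0.0581), but it was detected on 1 of 4 knockout and 4 of 4 wildtype arrays, and on values without background correction it was at -0.13. Furin, which cleaves the Nodal precursor, was at -0.35 (limma adjusted p = 0.128), its other probe at -0.08 (0.768), and the mean of its probes at -0.22. The type I receptor genes for Nodal and activin, Acvr1b and Acvr1c, were detected on 0 arrays, as was Cfc1, a relative of Tdgf1. Each had 1 probe, and a probe that was not detected does not show that the transcript was absent. The TGF-beta receptor genes Tgfbr1 and Tgfbr2 were at -0.06 (0.817) and -0.03 (0.904).

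Of other antagonist genes, the 2 tested both rose. Fst encodes follistatin, a secreted protein that traps activin. It read 7.51, 7.02, 6.77 and 7.08 in knockout clones 1 to 4, against 6.31, 6.0, 5.42 and 6.05 in wildtype subclones 1 to 4. Every knockout array lay above every wildtype array, and the log2 change was 1.15 (SE 0.21, limma adjusted p = 0.0113), 2.22-fold. On values without background correction it was 0.49 and still passed. Its call was lost without normalization between arrays (0.56, limma adjusted p = 0.0502) and with array brightness as a covariate (1.88, 0.182). Before normalization Fst read 274, 207, 199 and 196 in knockout clones 1 to 4. Wildtype subclones 1 to 4 read 224, 195, 169 and 216, so the intensities overlapped. Nomo1, part of a membrane complex described as a Nodal modulator, rose by 0.40 (limma adjusted p = 0.0423), a call lost without any 1 array other than knockout clone 3 and turned to -0.06 with median scaling over all probes.

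**Figure D5:**
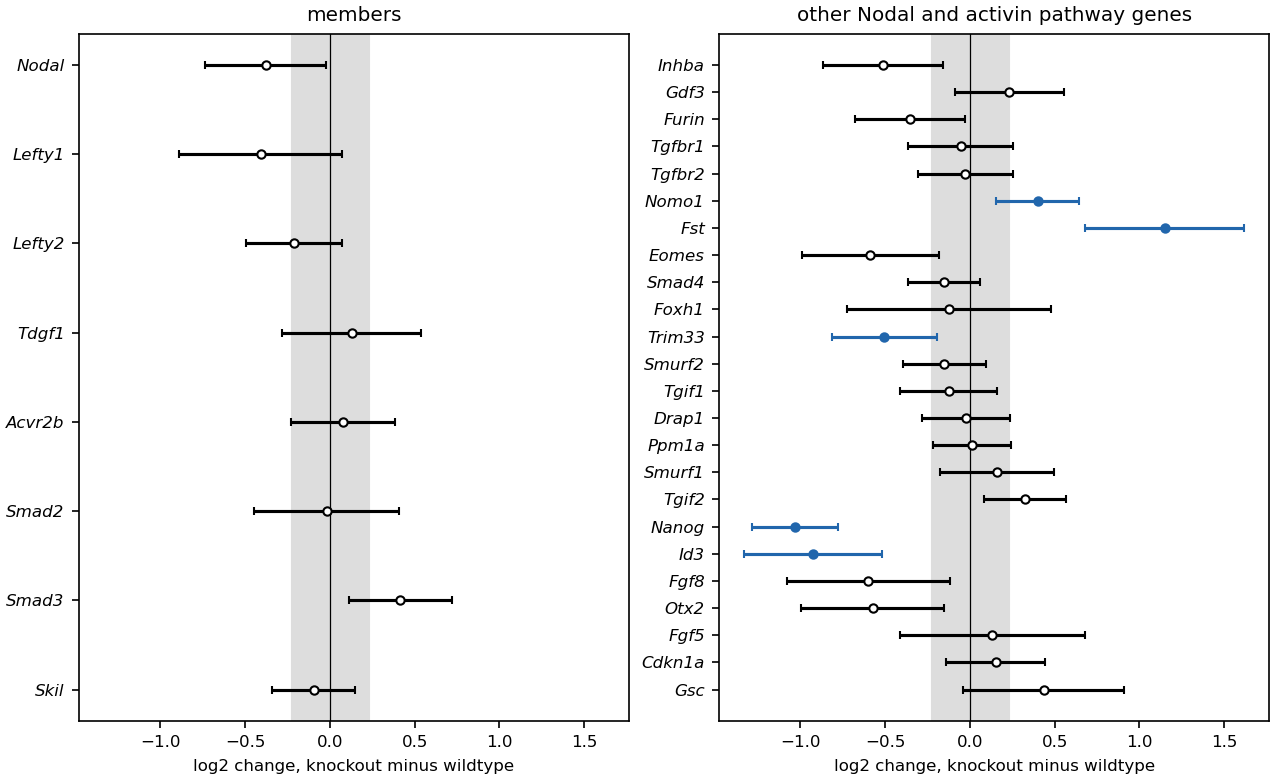
Log2 change, knockout minus wildtype (x axis), with 95% limma interval, of the 8 measured members (left) and of the 24 other pathway genes tested (right), blue and filled where the adjusted p was under 0.05. The grey band holds the middle of all genes, from -0.22 to 0.23 (interquartile range), and Fst, Nanog and Id3 lie farthest from 0 while no member is filled.

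Among SMAD partners and nuclear regulators, Trim33 fell and the rest did not pass. Smad4 was at -0.15 (limma adjusted p = 0.292) and Foxh1 at -0.12 (0.787). Foxh1, whose product brings SMAD2 to target genes, read 6.60 in knockout clone 1, against 7.77, 7.89 and 7.94 in the other knockout clones and 7.52 to 7.89 in wildtype. Its other probe read 6.82 in knockout clone 1, against 7.39 to 7.71 in the other knockout clones and 7.35 to 7.83 in wildtype. Knockout clone 1 was thus the lowest array for Foxh1, Lefty1 and Nodal. Among knockout clones it was the highest for Lefty2 (9.69), Smad3 (7.68), Tgfbr1 (10.76) and Fst (7.51). This clone was left out in turn. Without it, Foxh1 was at 0.19 (0.296) and Nodal at -0.28 (limma adjusted p = 0.246). Trim33, an E3 ligase that binds SMADs, fell by 0.51 (limma adjusted p = 0.0408), a call lost without any 1 of 6 arrays (limma adjusted p up to 0.101). Its other probes were at -0.65 (0.0382) and -0.06 (0.801). Drap1 was at -0.02 (0.907) and Ppm1a at 0.01 (0.942).

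Of 7 target genes tested, Nanog and Id3 fell and passed, and none rose and passed. The median log2 change of the 7 was -0.57. Nanog, a homeobox factor of pluripotency, read 10.67, 10.83, 10.75 and 10.76 in knockout clones 1 to 4, against 12 in wildtype subclone 1 and 11.85, 11.67 and 11.62 in wildtype subclones 2 to 4. The groups were apart by more than the spread within either, and Nanog fell by 1.03 (SE 0.11, limma adjusted p = 0.00158). Nanog lies on chromosome 6, and without wildtype subclone 3 its log2 change was -1.07. Id3, an inhibitor of helix-loop-helix factors that SMAD signalling induces, read 7.21, 7.58, 7.05 and 7.33 in knockout clones 1 to 4, against 8.67, 8.23, 7.83 and 8.13 in wildtype subclones 1 to 4, and fell by 0.92 (SE 0.18, limma adjusted p = 0.0145). Id3 answers to BMP as well as to Nodal. With array brightness as a covariate Nanog and Id3 did not pass, as 0 of the 24 other pathway genes did, and 16 of all 8830 genes passed. Fgf5 was at 0.13 (limma adjusted p = 0.747) and Cdkn1a at 0.15 (0.450). Other Cdkn1a probes were at 0.41 (limma adjusted p = 0.0894) and 0.57 (0.0727), and the mean of its probes was at 0.38. The remaining targets tested were Fgf8 at -0.60 (limma adjusted p = 0.0885), Otx2 at -0.57 (0.0711) and Gsc at 0.44 (0.186). Fgf8 and Otx2 passed with array weights (-0.68 and -0.51) and with median scaling over all probes (-1.08 and -1.05). Of all 8830 genes, 1119 were lower and passed with array weights, and 3474 with median scaling over all probes. The targets Mixl1, Foxa2, Cyp26a1 and Lhx1 did not pass the detection filter.

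Markers of other cell types were read beside these values, and wildtype subclone 3 stood apart in several lists. Summed levels are sums of unlogged normalized values over the tested genes of a list. Of all 8830 genes 6.55% rose and 7.17% fell (limma adjusted p under 0.05). Without wildtype subclone 3, 647 genes rose and 793 fell. Of 9 primitive streak and mesoderm markers 5 were tested and 0 called, and their summed level was 552 to 755 in knockout and 728 to 1112 in wildtype, with Mixl1, Mesp1 and Lhx1 below the detection filter. Without wildtype subclone 3, Eomes fell by 0.70 (limma adjusted p = 0.0328). Of 10 trophoblast markers 7 were tested and 3 fell, Krt8, Krt18 and Tfap2c, with a summed level of 748 to 1171 in knockout and 2196 to 10621 in wildtype, and Cdx2, Elf5 and Hand1 below the filter. The 10621 was wildtype subclone 3 alone, the other wildtype arrays summed to 2196 to 2399, and without subclone 3 the same 3 genes and Eomes were lower and passed. Of 7 neuroectoderm markers 4 were tested and Irx3 rose, with a summed level of 1096 to 1603 in knockout and 530.3 (subclone 3) to 980.2 in wildtype, and Sox1, Pax6 and Hes5 below it. Of 10 naive pluripotency markers 6 were tested and Klf2 rose, with a summed level of 989 to 1198 in knockout and 885 to 2201 in wildtype, where subclone 3 held the 2201 and the others 885 to 1045. Dppa3 was at -1.18 (limma adjusted p = 0.108) and Esrrb at -0.35 (0.664), and the median log2 change of this list was -0.01. Of 10 feeder fibroblast markers 4 were tested and 0 called, with a summed level of 488 to 906 in knockout and 514 to 1350.4 in wildtype, where subclone 3 held the 1350.4 and the others 514 to 563. Whether such cells were present, and whether they had a part in the changes of pathway genes, was not tested.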

How the data were processed

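Total RNA of 4 GRHL2 knockout and 4 wildtype arrays was compared. Per the file headers, the authors deposited a probe profile with mean bead intensity, its standard error, a count of beads and a detection p-value for each probe. The authors also deposited log2 values, quantile normalized over the arrays (column median 7.199), to which the series value table was identical, and a comparison table with log2 fold changes, p-values and moderated scores. The submitters' processing notes name limma. No source used here names the scanner software.

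The intensities went through neqc, which corrects background and applies quantile normalization (limma 3.58.1, R 4.3.3, offset 16, background inferred from detection p). A probe was retained when at least 4 of 8 arrays gave it a detection p below 0.05 (12790 probes), and the brightest stood for its gene. Symbols came from the platform annotation: 23978 probes had 1 symbol and 1719 none, 23962 matched RefSeq genes by Entrez identifier, and 0 symbols changed. Groups were fitted with lmFit and eBayes, two-sided, with Benjamini-Hochberg adjustment over 8830 genes. The number of arrays limits the precision. The fit was tested on simulated data.

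Clone and subclone numbers were not taken as pairs: same-numbered arrays correlated by -0.08 to 0.05 in their deviations. Named were all members, the other pathway genes past the threshold, up to 2 of the brightest others per role, and the 5 genes most like Nodal; others are named by their list. The members and lists were chosen with earlier results of these data known. The pairwise correlations of members, the outlier test on genes other than members, the marker lists without wildtype subclone 3 and the median scaling over detected probes were added after results were seen. Alternatives covered background, scaling, filter, probe choice, moderation, weights, clone number, brightness and arrays left out. No sample column was unmapped.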

Additional observations from a re-analysis of the deposited data

Results flagged for a closer look

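In 6 of 50 sets of 4 arrays tested for a lone extreme, 1 array stood far from the other 3 of its genotype on the log2 scale, where chance alone gives about 1 in 20. The members made up 16 of these sets, and the rest, named pathway genes and Grhl2, were added after Foxh1 had been noticed. Among members this was Smad2 on wildtype subclone 1, at 8.03 against 7.79 to 7.82 on the others. Foxh1 was at 6.60 (6.603) on knockout clone 1 against 7.77 to 7.94, and Tgfbr1 was at 10.76 on the same array against 10.38 to 10.43. Nomo1 was at 10.25 on wildtype subclone 4 against 10.11 to 10.13, Drap1 at 11.75 on knockout clone 2 against 11.60 to 11.62, and Grhl2 at 7.06 (7.064) on knockout clone 3 against 7.86 to 7.99.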

How the results depend on the processing

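With median scaling over all probes 4 members, 14 other pathway genes and 3607 of all genes passed (1 pathway gene higher and 13 lower, 133 of all genes higher and 3474 lower), and without normalization between arrays 7, 18 and 5771 (0 and 18, 36 and 5735), beside 2 and 3, 578 and 633 as reported. With median scaling over detected probes, added after the data were seen, 1 member and 2099 genes passed (1547 higher, 552 lower). Array weights gave 2175 genes and 11 pathway genes, brightness as a covariate 16 and 0, and a threshold of 0.01 gave 167 and 1. The replicate block gave 671 genes and changed no member's call. It took the calls of Nomo1 (adjusted p = 0.0728) and Trim33 (0.0537), and added Eomes (-0.59, 0.0499), which gives 4 pathway genes. Leaving out 1 array gave 510 to 1440 genes, 0 members and 3 to 5 pathway genes. The cause of these moves was not tested.

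Of 184 member values under alternatives, 157 kept direction and side of the threshold and 17 changed sign. Under median scaling over all probes Tdgf1 was -0.35, Acvr2b -0.32, Smad3 -0.0079, Gdf3 -0.13, Nomo1 -0.062, Ppm1a -0.38, Fgf5 -0.35 and Cdkn1a -0.30, and without normalization they were -0.59, -0.55, -0.24, -0.36, -0.29, -0.61, -0.58 and -0.53. With brightness as a covariate Nodal was -0.97 and Lefty1 -1.40, neither passing, and Acvr2b was -0.16, Lefty2 0.33, Smad2 0.86, Gdf3 -0.0023, Tgfbr1 0.44, Smad4 0.00011 and Fgf5 -1.06. With array weights Tgfbr2 was 0.0042, Foxh1 0.11 and Ppm1a -0.027. With the mean of probes Tdgf1 was -0.14 and Ppm1a -0.078. Without wildtype replicate 3 and knockout replicate 1 together Tdgf1 was -0.031, Foxh1 0.27, Drap1 0.054 and Ppm1a -0.067. With median scaling over detected probes Smad2 was 0.0058, Tgfbr2 0.18 and Drap1 0.062. In the authors' deposited table Foxh1 was 0.025 and Ppm1a -0.0094. With single arrays left out the ranges that crossed 0 were -0.049 to 0.22 for Tdgf1, -0.015 to 0.17 for Acvr2b, -0.15 to 0.12 for Smad2, -0.15 to 0.022 for Tgfbr1, -0.075 to 0.073 for Tgfbr2, -0.25 to 0.19 for Foxh1, -0.10 to 0.045 for Drap1, -0.027 to 0.053 for Ppm1a and -0.11 to 0.31 for Fgf5.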
